A study of Homo sapiens with 4 samples.

Results

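The genes of 6 fibroblast growth factor (FGF) ligands and 4 FGF receptors were examined for the histone variant macroH2A1 in IMR90, a culture of fetal human lung fibroblasts. They were picked by name, as FGF1, FGF2, FGF5, FGF7, FGF9, FGF10, FGFR1, FGFR2, FGFR3 and FGFR4, each read over its annotated hg19 span and 50 kb on either side. All 10 were among the 19517 protein-coding genes with at least 50% of their span assayed, of 20098 annotated outside chromosome Y. The series held 2 chromatin immunoprecipitation (ChIP) libraries made with an antibody against macroH2A1 and 2 matching libraries of input chromatin, all from untreated, unmodified cells grown in serum. The labels call the ChIP libraries biological replicates. All come from the same cell strain, so their spread does not include differences between donors. Each ChIP replicate was given as a division of the genome into segments, with the log2 ratio of ChIP over input in each segment. RNA was not measured, so neither the expression of these genes nor the fibroblast identity of the culture could be checked from the files. With 1 condition and 2 replicates no test between samples was possible, and each value is given in both replicates.

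Most FGFs are secreted proteins that bind heparan sulfate on the cell surface and activate receptor tyrosine kinases, which signal through RAS and the MAP kinases. In the lung they carry messages between mesenchyme and epithelium: mesenchymal cells make FGF7 and FGF10, and epithelial cells carry the FGFR2 splice form that binds them. FGF2 is a classic growth factor for fibroblasts, and FGFR1 is a main receptor of mesenchymal cells. MacroH2A1 is a histone H2A with a large extra domain, found over broad stretches of mostly silent chromatin and over the inactive X chromosome.

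Of the 10 genes, some lay inside macroH2A1 domains, some were depleted with a domain ending at their start, and some lay in wide weakly depleted chromatin. FGFR3 was crossed by the end of a domain. FGFR4 lay whole within 1 segment in each replicate, and the sign of that segment differed between the replicates. Only FGF1 and FGF9 had a mean log2 ratio above 0 over the gene in both replicates (2 of 10 genes, where 22.8% of all measured genes did). FGF2, FGF5, FGF7, FGF10, FGFR1, FGFR2 and FGFR3 were below 0 in both (7 of 10, against 69.7% of all genes), and FGFR4 had opposite signs in the replicates (1 of 10, against 7.5%). These shares lie close to those of all genes, so the list as a whole is not set apart by its counts. The median over the 10 genes was -0.67, against -0.81 over all measured genes. FGF7, FGFR2, FGF5 and FGF10 stood near the middle of all genes, higher than 43.2%, 49.8%, 51.2% and 58.3% of them.

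The promoters below show the start sites on which the pattern turns: FGF2, FGF5 and FGF7 carry the end of a macroH2A1 domain just outside the gene, FGF1 starts inside a domain, and FGF10 starts in weakly depleted chromatin. Each runs 5′ to 3′ on the gene's own strand from 250 bases before the start site to 50 bases after it, with every CG dinucleotide (CpG, the site of DNA methylation) in capitals. The sequences are those of RefSeq on GRCh38.p14, placed here in hg19 by exact match.
FGF2: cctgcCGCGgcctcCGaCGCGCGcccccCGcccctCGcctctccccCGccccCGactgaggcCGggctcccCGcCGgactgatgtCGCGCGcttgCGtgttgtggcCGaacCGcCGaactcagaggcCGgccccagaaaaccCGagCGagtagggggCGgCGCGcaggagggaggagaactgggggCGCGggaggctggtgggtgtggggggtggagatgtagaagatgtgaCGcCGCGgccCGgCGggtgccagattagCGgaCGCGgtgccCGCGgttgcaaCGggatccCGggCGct
FGF5: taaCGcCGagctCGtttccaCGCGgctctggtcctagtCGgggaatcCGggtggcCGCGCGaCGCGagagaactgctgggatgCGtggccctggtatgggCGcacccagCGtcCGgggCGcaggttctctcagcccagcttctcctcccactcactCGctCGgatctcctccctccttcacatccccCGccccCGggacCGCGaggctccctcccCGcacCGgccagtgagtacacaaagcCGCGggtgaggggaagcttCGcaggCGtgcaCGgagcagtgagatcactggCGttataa
FGF7: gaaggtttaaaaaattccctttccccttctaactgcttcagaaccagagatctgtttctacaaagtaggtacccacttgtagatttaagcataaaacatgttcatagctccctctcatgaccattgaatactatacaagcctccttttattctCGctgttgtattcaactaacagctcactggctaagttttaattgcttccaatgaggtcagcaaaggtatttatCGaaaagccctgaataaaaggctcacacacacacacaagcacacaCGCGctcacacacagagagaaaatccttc
FGF1: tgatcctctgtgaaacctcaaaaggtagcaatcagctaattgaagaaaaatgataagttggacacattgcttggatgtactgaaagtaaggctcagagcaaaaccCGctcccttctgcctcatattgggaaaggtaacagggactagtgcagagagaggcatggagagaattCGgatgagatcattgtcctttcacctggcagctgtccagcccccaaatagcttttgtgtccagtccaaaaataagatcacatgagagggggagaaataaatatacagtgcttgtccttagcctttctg
FGF10: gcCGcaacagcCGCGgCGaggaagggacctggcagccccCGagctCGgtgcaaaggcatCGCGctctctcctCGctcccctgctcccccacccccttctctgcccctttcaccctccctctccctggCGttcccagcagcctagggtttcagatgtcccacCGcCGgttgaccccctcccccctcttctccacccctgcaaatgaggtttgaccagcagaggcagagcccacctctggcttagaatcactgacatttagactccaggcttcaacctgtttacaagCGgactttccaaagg
They lie at chr4:123747736-123748035 (FGF2, plus strand), chr4:81187492-81187791 (FGF5, plus strand), chr15:49715189-49715488 (FGF7, plus strand), chr5:142077586-142077885 (FGF1, minus strand) and chr5:44389473-44389772 (FGF10, minus strand). The FGF2 promoter held 41 CpGs, a number reached by 6.69% of the 35114 promoters of the same length in the table. FGF5 held 31 (reached by 20.6%), FGF10 held 13 (51.7%), FGF7 held 4 (75.5%) and FGF1 held 2 (89.0%), where the median promoter held 14. Start sites on the depleted side of an edge were not alike in CpG number: FGF2 and FGF5 were above the upper quartile of all promoters, which is 28, and FGF7 was at the lower quartile, which is 4. FGFR2 and FGFR3, with 52 and 51 CpGs at their first start sites, lay in depleted and in enriched segments. RefSeq promoters were found for 8 of the 10 genes, all but FGF9 and FGFR1.

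FGF1, which binds all 4 FGF receptors, lay entirely inside macroH2A1-enriched chromatin (chr5:141971743-142077635, minus strand). Its mean log2 ratio was 0.57 in replicate 1 and 0.60 in replicate 2 (0.58 ± 0.02, SD, n = 2), higher than 88.9% of measured genes. A segment was counted as enriched with a log2 ratio above 0 and the authors' −log10 p of at least 2, and by this rule 100% of the gene was enriched in both replicates. The level was uneven along the gene. The first 31.6 kb in replicate 1 and 33.5 kb in replicate 2 belonged to a strong segment at 1.14 and 1.04, which also held the 50 kb upstream. The rest of the gene lay mostly in a weaker segment at 0.32 and 0.34. FGF1 has 4 RefSeq start sites: the first 3, within the first 11980 bases of the gene, lay in the strong segment, and the fourth, 53.8 kb into the gene, lay in the weaker one. The weaker segment passes the enrichment rule with a −log10 p of 10.5 in replicate 1 and 4.32 in replicate 2. At a −log10 p of at least 5 the covered share of FGF1 was 39.1%.

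FGF9, which in the mouse signals from lung epithelium and mesothelium to mesenchyme, had the highest mean of the 10 genes (chr13:22245212-22278637, plus strand). It stood at 0.65 in replicate 1 and 0.68 in replicate 2 (0.67 ± 0.02, SD, n = 2), above 90.7% of measured genes. In each replicate the gene and both 50-kb flanks lay in 1 long segment, of 193 kb in replicate 1 and 313 kb in replicate 2. The gene and its flanks therefore share the segment's value, and any finer structure is not visible. FGF1 and FGF9 each differed by 0.03 between the replicates, a smaller difference than in 92.1% and 92.2% of measured genes.

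**Figure D1:**
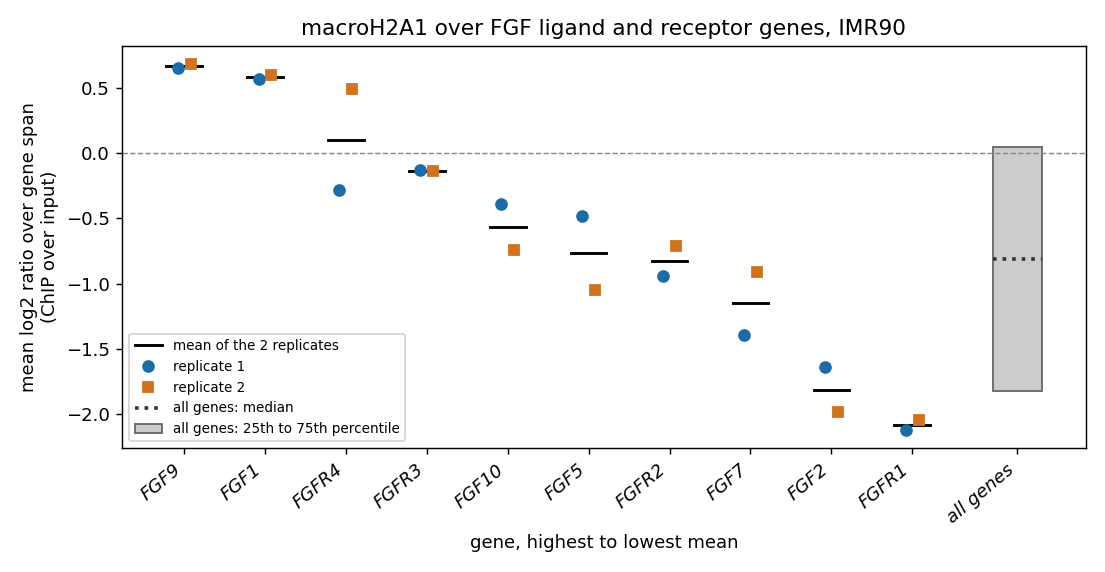
Mean log2 ratio of macroH2A1 ChIP over input across each gene span (y axis) for the 10 FGF genes, ordered by their mean (x axis), with circles for replicate 1, squares for replicate 2 and a line at their mean. The grey bar at the right gives the quartiles of all 19517 measured genes; FGF9 and FGF1 lie above 0 in both replicates, FGFR4 lies on both sides of 0 and the other 7 lie below.

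FGF2, the basic fibroblast growth factor (chr4:123747837-123819391, plus strand), was depleted beside an enriched domain, with a mean lower than in 74.7% of measured genes. The gene's log2 ratio was -1.64 in replicate 1 and -1.98 in replicate 2, and the 50 kb upstream stood at 0.91 and 0.78. The gene was thus lower than its upstream flank by 2.55 and 2.76 (-2.65 ± 0.15, SD, n = 2). The edge lay 1388 bases before the gene start in replicate 1 and 2101 bases before it in replicate 2. The enriched segment outside it was 78.3 and 78.6 kb long. Downstream, the flank stayed below 0, at -1.13 and -0.97. NUDT6, which runs on the other strand and overlaps the last 9.54 kb of FGF2, stood at -0.87 and -0.93, and SPATA5 beyond it at -0.56 and -0.91.

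FGF7, the keratinocyte growth factor that fibroblasts supply to epithelium, showed the same layout with a sharper contrast at the edge (chr15:49715434-49780972, plus strand). The gene stood at -1.39 in replicate 1 and -0.91 in replicate 2, against 1.12 and 0.90 in the 50 kb upstream (-2.16 ± 0.49, SD, n = 2). The edge was 416 bases before the gene start in replicate 1 and 1101 in replicate 2. A short segment of 11.9 and 11.02 kb just outside it reached 1.70 and 2.38, the highest segment next to any of the 4 start-site edges described here. MacroH2A1 was also enriched beyond the 3′ end: the downstream flank stood at 0.64 and 0.25, and the return to values above 0 came 74.2 kb after the gene start in replicate 1 and 74.9 kb after it in replicate 2, some kilobases past the end of the 65.5-kb gene. FGF7 lies whole within FAM227B, a gene of 294 kb on the other strand that was covered by enriched segments over 35.8% of its assayed bases.

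FGF5, which ends the growth phase of the hair cycle, was lowest at its very start (chr4:81187793-81257834, plus strand). The edge lay 1367 and 2107 bases before the gene start, between a segment at 1.22 and 1.13 outside and one at -2.97 and -1.83 on the gene side. The segment outside was 23.5 and 22.8 kb long. Further upstream came a stretch at 0.12 in replicate 1, not enriched, and at -1.11 in replicate 2. Segments enriched in both replicates covered 63.0% of the upstream flank. In replicate 1 the lowest segment was 4.92 kb long and was followed by one at -0.92 up to 31.8 kb. In replicate 2 a segment of 32.8 kb held this whole stretch. Beyond it the rest of the gene was at 0.07 in replicate 1 and -0.45 in replicate 2, on different sides of 0. The mean over the gene was -0.48 and -1.05, with a replicate difference larger than in 86.2% of measured genes, and the upstream flank was at 0.69 and 0.44. CFAP299, which begins at the 3′ end of FGF5 and runs on over 628 kb, stood at -0.12 and -0.46.

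FGFR1, a main FGF receptor of mesenchymal cells, had the lowest mean of the 10 genes and the edge nearest to its start (chr8:38257733-38326352, minus strand). It stood at -2.12 in replicate 1 and -2.04 in replicate 2 (-2.08 ± 0.06, SD, n = 2), lower than 84.9% of measured genes. The 50 kb upstream stood at 0.76 and 1.14, so that the gene was lower by 2.88 and 3.18. The edge was 291 bases before the gene start in replicate 1 and 470 bases before it in replicate 2, 179 bases apart. Replicate 2 drew the upstream domain as 1 segment of 159 kb, whereas replicate 1 divided its first 50 kb into 6 segments between 0.45 and 2.08. LETM2, which overlaps the last 9.31 kb of FGFR1, stood at -0.65 and -0.67, and NSD3 further downstream at -1.98 and -2.00.

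These 4 genes were the ones with a start-site edge, defined as a change from a segment above 0 outside the gene to one below 0 on the gene side, within 5 kb of the gene start in both replicates. That makes 4 of 10 genes, where 18.7% of measured genes had such an edge; the opposite edge, with the segment above 0 on the gene side, was found at none of the 10 and at 3.25% of measured genes. The definition was chosen after the segments had been seen, and no test was made. In each of the 4 genes and both replicates the edge lay outside the transcribed span. The step across it, gene side minus outside, averaged -2.77 ± 0.17 at FGF2, -3.57 ± 0.87 at FGF5, -3.31 ± 0.02 at FGF7 and -3.21 ± 0.39 at FGFR1 (SD, n = 2 each). Over the 3647 genes with such an edge the median step was -2.43. The edges of the replicates were 713, 740, 685 and 179 bases apart in the same order of genes, against a median of 437 over those 3647 genes. With a limit of 2 kb from the start, FGF7 and FGFR1 kept an edge in both replicates (2 of 10, where 12.1% of measured genes did). In replicate 1 taken alone 6 genes had one, the others being FGFR3, 4.99 kb inside the gene, and FGFR4, 0.826 kb before its start. No share of measured genes is given for replicate 1 alone, so this count cannot be set against the 18.7% for both replicates.

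**Figure D2:**
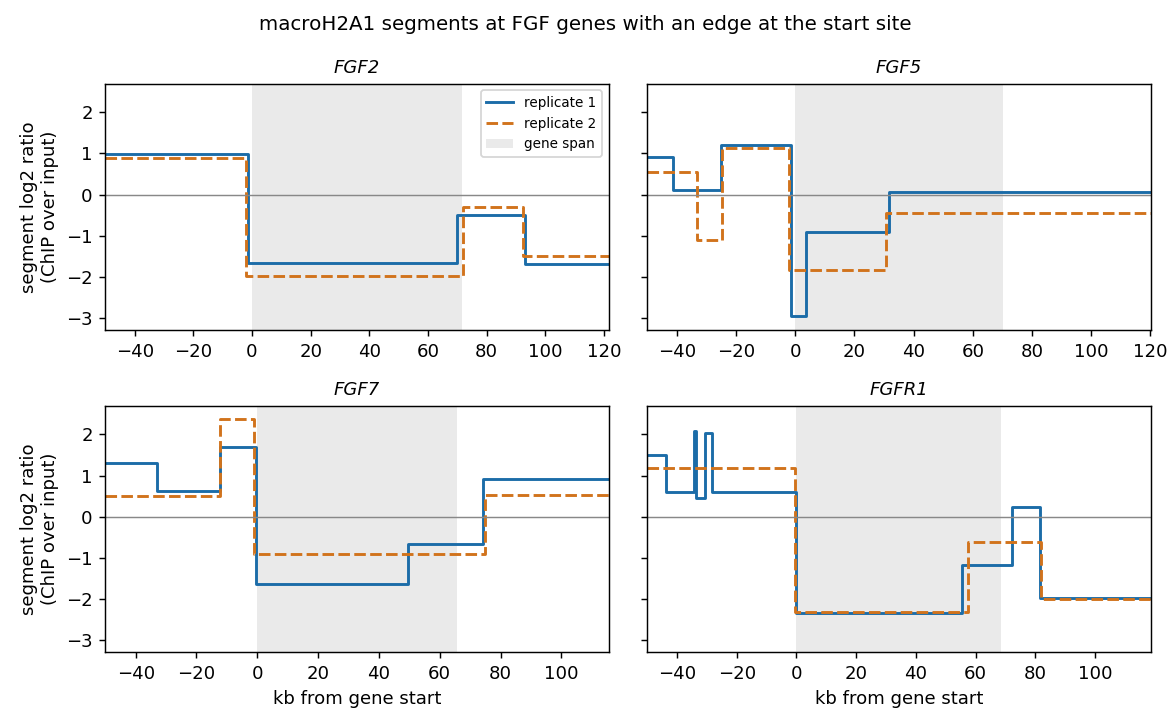
Segment log2 ratio of ChIP over input (y axis) by distance from the gene start in kb, on the gene's own strand (x axis), for FGF2, FGF5, FGF7 and FGFR1, with a solid line for replicate 1, a dashed line for replicate 2 and grey for the gene span. In all 4 panels both lines drop from above 0 to below 0 between 291 and 2107 bases before the gene start.

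FGF10, the mesenchymal ligand needed for lung bud outgrowth in the mouse, lay in weakly depleted chromatin without a nearby edge (chr5:44300349-44389808, minus strand). Its log2 ratio was -0.39 in replicate 1 and -0.74 in replicate 2 (-0.56 ± 0.25, SD, n = 2). The segment that held it was 400 kb long in replicate 1 and 1910 kb in replicate 2. These lengths include stretches that were not assayed, which divided the segment into 2 blocks in replicate 1 and 39 in replicate 2. FGF10 stood in the emptiest neighbourhood of the 10 genes, with 1 other protein-coding gene within 500 kb. FGFR2, whose splice forms receive FGF7 and FGF10 or FGF2 and FGF9, was likewise in a long segment below 0 (chr10:123237846-123357972, minus strand). It stood at -0.94 in replicate 1 and -0.71 in replicate 2 (-0.83 ± 0.16, SD, n = 2), in segments of 742 and 750 kb that also held both flanks and all 5 of its RefSeq start sites.

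FGFR3, the receptor that restrains bone growth, was crossed by the end of a domain inside the gene (chr4:1795020-1810599, plus strand). Its start lay in an enriched segment at 0.62 in replicate 1 and 0.42 in replicate 2, which began 46.0 and 45.7 kb upstream. In replicate 1 that segment ended 4.99 kb into the 15.6-kb gene and was followed by one at -0.11, and in replicate 2 it ended at 12.4 kb. From 13.7 and 12.4 kb onward the values were -2.25 and -1.81, and LETM1, downstream, stood at -2.25 and -1.81 as well. TACC3, upstream of the domain, was at -2.27 and -1.40. The mean over FGFR3, -0.13 in replicate 1 and -0.14 in replicate 2, is therefore an average of an enriched 5′ part and a depleted 3′ end. Over 5 kb centred on its start site it stood at 0.62 and 0.42, the opposite sign. Of the gene 82.6% was assayed in both replicates, the lowest share of the 10 genes, and 32.0% and 75.1% of it was enriched in replicates 1 and 2.

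FGFR4, a receptor for FGF19 in liver, sat in a small island between depleted neighbours (chr5:176513906-176525145, plus strand). Replicate 2 drew the island as 1 enriched segment of 51.7 kb at 0.49, from 6.84 kb before the gene start to 44.9 kb after it. Replicate 1 placed its ends at nearly the same points, 6.62 kb before and 44.4 kb after, but divided it into 4 segments, of which the one that held the gene stood at -0.29 and the others at 0.66, 1.00 and 0.15. The gene's mean was therefore -0.29 and 0.49 (0.10 ± 0.55, SD, n = 2), a replicate difference larger than in 92.5% of measured genes. On either side ZNF346 was at -2.05 and -2.01 and NSD1, a histone methyltransferase gene, at -1.98 and -2.31. FGFR4 had the most crowded surroundings of the 10 genes, with 26 other protein-coding genes within 500 kb.

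**Figure D3:**
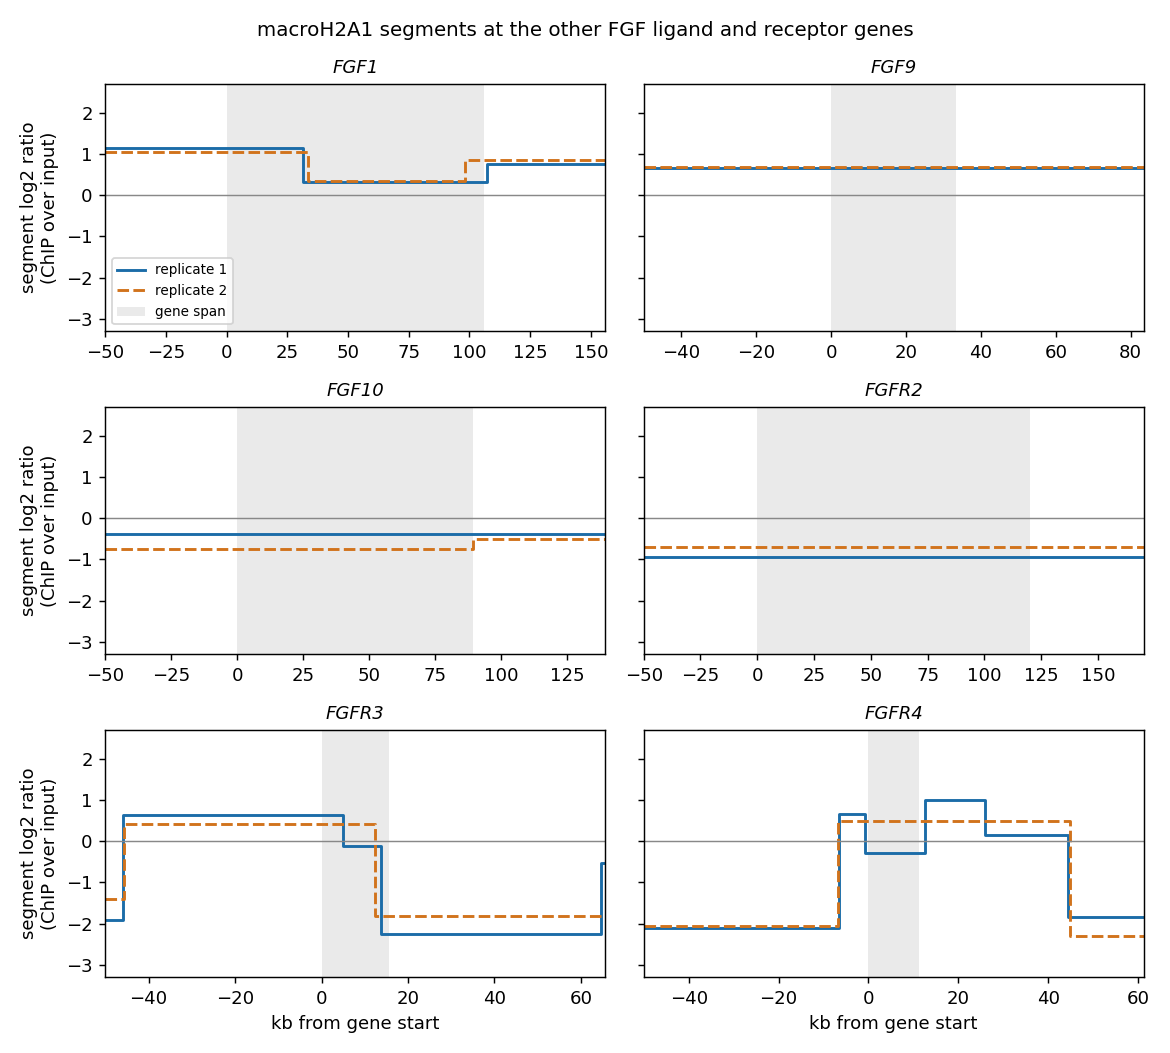
Segment log2 ratio of ChIP over input (y axis) by distance from the gene start in kb (x axis) for the other 6 genes, with a solid line for replicate 1, a dashed line for replicate 2 and grey for the gene span. FGF1 and FGF9 stay above 0 throughout, FGF10 and FGFR2 stay below 0, and in replicate 2 the enriched stretches over FGFR3 and FGFR4 end 12.4 and 44.9 kb after the gene start.

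Ordered by their mean, the genes ran FGF9, FGF1, FGFR4, FGFR3, FGF10, FGF5, FGFR2, FGF7, FGF2 and FGFR1. In 4 of the 9 neighbouring pairs the replicate ranges overlapped, namely FGFR4 with FGFR3, FGF10 with FGF5, FGF5 with FGFR2, and FGFR2 with FGF7, so their order is not resolved. Covered shares separated the genes less finely. FGF1 and FGF9 were covered over at least 50% of their span by segments enriched in both replicates (2 of 10 genes, where 19.2% of measured genes were), FGFR3 was covered to 26.9% and the other 7 to 0. Without replicate 1 the count was 4, because FGFR3 and FGFR4 were covered to 75.1% and 100% in replicate 2. The windows held 14 changes of sign between neighbouring segments in replicate 1 and 11 in replicate 2, and 9 of each had a counterpart of the same direction within 10 kb in the other replicate. This limit counts the falling edges of FGFR3, at 4.99 and 12.4 kb into the gene, as shared. No genome-wide share of matched changes is given. Segment number itself differs between the replicates, with 46951 segments in replicate 1 and 25583 in replicate 2, and its part in these differences was not tested. Base composition of the spans ran from 33.8% GC at FGF7 to 65.8% at FGFR3.

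The genes also differed in how they stood against their flanks. The gene was below its upstream flank by 0.51 ± 0.09 at FGF1 and by 1.33 ± 0.23 at FGF5 (log2, SD, n = 2), and by more at FGF7, FGF2 and FGFR1. FGFR4 was the reverse, with the gene above its upstream flank by 1.83 ± 0.52. Against both flanks together it was higher by 1.15 ± 0.58, and with flanks of 10 kb the difference was -0.0638. FGFR3 was below its upstream flank (-0.47 ± 0.11) and above its downstream flank (1.88 ± 0.29). For FGF9 and FGFR2 the difference is 0 by construction, since gene and flanks share a segment.

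**Figure D4:**
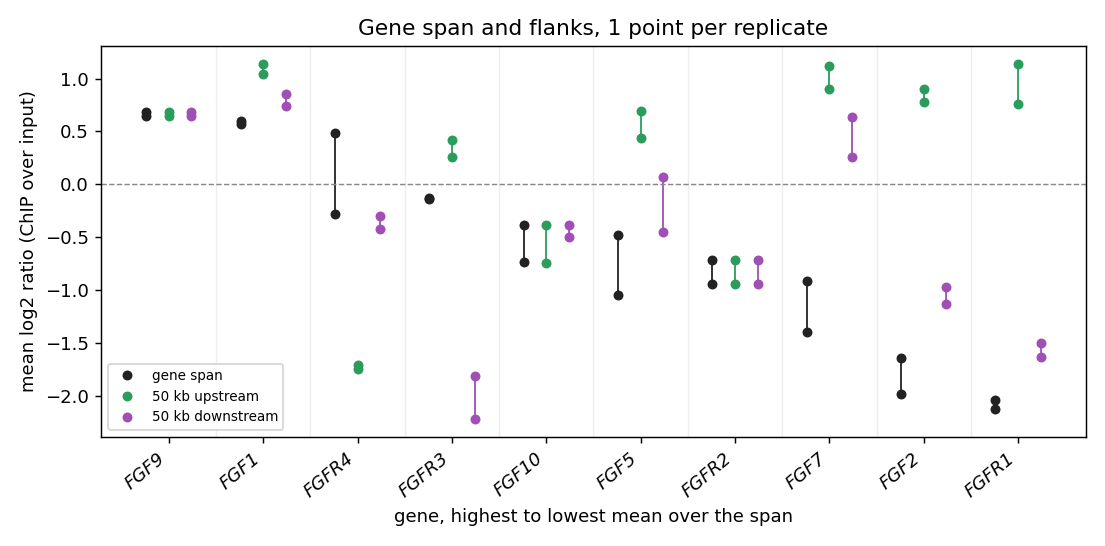
Mean log2 ratio of ChIP over input (y axis) over the gene span (black), the 50 kb upstream (green) and the 50 kb downstream (purple) of each gene (x axis), with 1 point per replicate joined by a line. The upstream points of FGF5, FGF7, FGF2 and FGFR1 lie between 0.44 and 1.14 while their gene spans lie between -0.48 and -2.12.

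Other genes of the FGF pathway, 66 in 7 groups by role, had different medians by role, and no test between roles was made. Of the 16 remaining FGF genes, 11 were above 0 in both replicates and 4 below, where 22.8% and 69.7% of all measured genes were, and the median was 0.36. Some of the 11 were only just above 0, down to 0.0025 in a replicate. By coverage, 9 of the 16 were covered over at least 50% of their span, where 19.2% of measured genes were. Among them FGF21, a metabolic hormone of the liver, stood at 0.79 in replicate 1 and 1.01 in replicate 2. FGF3, FGF4 and FGF19, neighbours on chromosome 11, shared 1 segment in replicate 1 at 0.60, and FGF13 and FGF16 lie on chromosome X. None of the 16 had a start-site edge as defined above, where 18.7% of measured genes did. That edge needs a segment below 0 on the gene side, so a low count follows in part from the 11 genes above 0. FGF8 had the opposite edge, found at 3.25% of measured genes, with an upward step of 2.72 ± 0.73 (SD, n = 2). That edge lay inside the gene, 2597 bases after its start in replicate 1 and 1101 in replicate 2. The FGF8 start itself thus lay in a segment below 0, at -2.05 and -2.54. Over the whole gene FGF8 had opposite signs, -0.40 and 0.35, and was covered to 0%. KL, which encodes the FGF23 co-receptor klotho, stood at 0.99 and 0.78. The decoy receptor and co-receptors had 2 of 3 genes above 0 in both replicates, and the FGF-binding carriers had 2 of 3, where 22.8% of measured genes were. The 2 carriers above 0 both lie on chromosome 4 and had the same value in replicate 1, 0.50. The other carrier had opposite signs, at -1.47 in replicate 1 and 1.00 in replicate 2.

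The signal relay genes had the lowest median of the 7 groups, -1.96. All 16 were below 0 in both replicates, where 69.7% of all measured genes were, among them HRAS at -2.77 and -2.20 and the MAP kinase kinase gene MAP2K2 at -2.92 and -3.20, the lowest of the list. Of 14 genes for heparan sulfate proteoglycans and their synthesis, 12 were below 0, against the same 69.7%, and the 2 above 0, GPC3 and GPC4, lie on chromosome X. Start-site edges were found at 8 of these 14 genes and at 9 of the 16 relay genes, where 18.7% of measured genes had one. Such an edge needs a segment below 0 on the gene side, so these edge counts are tied to the counts below 0 and are not a separate result. FGFRL1, the receptor without a kinase domain, stood at -1.93 and -3.12. Of the 8 feedback inhibitors 6 were below 0, a share close to the 69.7% of all genes, and SPRY1 was the highest gene of the list, at 0.94 and 0.95, and covered to 100%. Of the 6 target transcription factors 3 were below 0 and 2 above. MYC had opposite signs, at -2.67 in replicate 1 and 0.86 in replicate 2. Over the whole list 21 of 66 genes were above 0 (17 of the 62 on autosomes), beside 22.8% of measured genes.

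**Figure D5:**
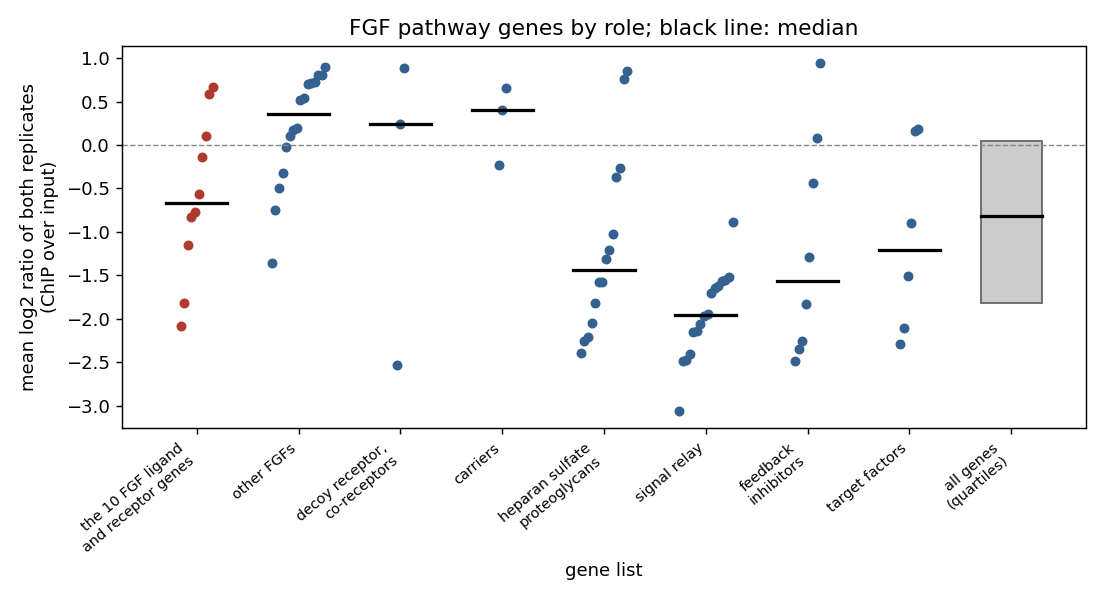
Mean log2 ratio of both replicates (y axis) for the 10 FGF ligand and receptor genes, in red, and for the other pathway genes by role, in blue (x axis), with black lines at the medians and a grey bar for the quartiles of all measured genes. The other FGFs have a median of 0.36 and the signal relay genes one of -1.96, with all 16 relay genes below 0.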

How the data were processed

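MacroH2A1 ChIP-seq from IMR90 cells comprised 2 ChIP and 2 input libraries; per the labels' protocols, chromatin was crosslinked and sheared to about 500 bp. The submitters' processing notes name CASAVA 1.7 and hg19. How reads were aligned, segmented and scaled to the input is not given in the sources used here. The authors deposited 1 segmentation per ChIP replicate, not pooled, each segment carrying a log2 ratio against input (column 13). The base was inferred from the values: 2 raised to them averaged 1.01 and 0.995 over assayed bases. Column 14 was read as the deposited −log10 p-value of a segment, from the file format and its values, and covered shares rest on that reading. Its only use was to pick enriched segments, since 68.5% and 68.6% of the segments below 0 list it as 0. Some of the other segments below 0 pass the limit of 2, such as the one that held FGFR4 in replicate 1, at 2.88. These were not counted as enriched, because the rule also asks for a log2 ratio above 0. Depth and counting error are unknown, since the files used here hold no read numbers. Ratios are relative to each library's own average, and a segment value hides anything shorter than the segment.

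A gene's value is the mean over the assayed blocks in its GENCODE 44 span on hg19, weighted by bases. The start site of a gene is the 5′ end of that span. Calculations used Python 3.11.15 and numpy 2.4.6, were tested on simulated segments, and counts by the main rules are given for all measured genes. Named genes were the 10 genes, neighbours within 50 kb and, from the pathway list, the 3 highest and the 3 lowest; GPC3, GPC4, MYC, FGF3, FGF4, FGF8, FGF13, FGF16 and FGF19 were named after their values were seen. Members, lists and rules were chosen with earlier results of these data known. The alternatives were other windows, flanks, thresholds and averages, whole segments with their gaps, and each replicate alone.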

Additional observations from a re-analysis of the deposited data

How the results depend on the processing

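Over 5 kb centred on the start site in place of the gene span, 4 of the 10 genes were above 0 in both replicates in place of 2. The additions were FGFR3, at 0.52 in place of -0.14, and FGFR4, at 0.03 in replicate 1 and 0.49 in replicate 2. FGFR4 was thus only just above 0 in replicate 1, where the segment that held its start stood at -0.29. By the median over the span FGFR3 averaged 0.15, from -0.11 in replicate 1 and 0.42 in replicate 2, and the count above 0 in both replicates was 2. The number of genes covered over at least 50% was 1 with a −log10 p of at least 5, 1 with a log2 ratio above 0.5, 4 when enrichment in either replicate sufficed, and between 2 and 4 when a replicate was left out. In the stricter settings FGF1 was covered to 39.1% and 29.8%. Start-site edges numbered 2 with a limit of 2 kb (12.1% of measured genes), a setting chosen after seeing the data. They numbered 4 with a limit of 10 kb (23.6%) or with the start of the canonical transcript (20.2%), beside 18.7% by the main rule of 5 kb. They numbered 6 without replicate 2 and 4 without replicate 1. No share of all genes is given for the single replicates or for the other counts in this section. With flanks of 10 kb the difference between FGFR4 and its flanks was -0.0638 in place of 1.15. The cause of these differences was not tested. The count below 0 was 5 in place of 7 over the start-site window, where FGF7 (-0.24 and 0.01 in replicates 1 and 2) and FGFR3 lost the call, and 5 by the median over the span, where FGF5 (0.07 and -0.45) and FGFR3 lost it. Counts of the other pathway genes above 0 ran from 16 to 24, against 21. No paired analysis was possible because the inputs have no file of their own here and enter only through the authors' ratio. Depth is unknown, and the 2 segmentations differ in resolution, which limits how finely an edge can be placed.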
